A study of Mus musculus with 9 samples.

Results

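The histone deacetylase family was followed through muscle differentiation by the probe sets of 10 genes: Hdac1, Hdac2, Hdac3 and Hdac8 of class I, Hdac4, Hdac5, Hdac7 and Hdac9 of class IIa, Hdac6 of class IIb and Hdac11 of class IV. A gene was a member if a probe set carried its symbol alone in the platform annotation, and where there were several the one with the highest mean over all arrays was used. The members had 12 such probe sets, all 10 were represented, and all 10 lay among the 16582 tested genes of 19938 measured. The arrays came from primary skeletal muscle cells of Balb/c mice, wild type, in 3 groups of 3 arrays: cycling myoblasts (day 0), and myotubes that had spent 2 or 5 days in differentiating medium. The titles name that medium, whereas the growth protocol lists one serum-containing medium with basic fibroblast growth factor for every sample. The labels do not say whether the 3 RNA samples of a group came from separate cultures or animals, so the spread between them may be technical.

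Histone deacetylases remove acetyl groups from lysines of histones and other proteins, which generally makes chromatin less permissive for transcription. Class I enzymes are broadly expressed nuclear proteins that work inside corepressor complexes, and HDAC1 is known to bind MyoD in undifferentiated myoblasts. Class IIa enzymes have little catalytic activity of their own. They bind MEF2 transcription factors and repress them, and they leave the nucleus once calcium-dependent kinases phosphorylate them, which is a known step in myogenesis. The gene of HDAC9 is itself a known MEF2 target, and it also encodes MITR, a form that lacks the catalytic domain. HDAC6 is mainly cytoplasmic and deacetylates tubulin and cortactin, and HDAC11 is the only class IV enzyme.

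Values are log2 expression from the RMA method, a background correction, normalization and probe set summary that the authors ran for each replicate set. Array medians were 4.33 to 4.35 in cycling cells, 4.26 at day 2 and 3.98 to 3.99 at day 5, so the time points had not been brought to one scale, and time point and normalization set cannot be told apart. Each change is therefore given first as deposited and then after quantile normalization over all 9 arrays, called the common scale, and a change was counted as a rise or a fall only if limma's adjusted p was under 0.05 and the change was at least 2-fold, in the same direction, on both. The step from the first scale to the second moved fold changes by a median of 0.17 (log2) at day 2, by 0.75 at day 5 against cycling cells and by 0.50 between the later time points. In the deposited RMA values 47.9%, 60.2% and 56.7% of probe sets had one identical value on all 3 arrays of cycling myoblasts, day 2 and day 5, and so did 4, 6 and 7 of the 10 members (within 1e-06). The cause of these identical values was not tested. An SD of 0 below stands for them, and they make adjusted p-values too small. Near-identical arrays also separate time points easily, so a lack of overlap says little by itself. Across probe sets, which are not independent replicates, Pearson's r was at least 0.990 within a time point and 0.902 to 0.967 between time points.

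The labels were checked against marker genes. The summed level of 6 myoblast markers was 12.53 to 12.65 in cycling cells, 12.63 at day 2 and 12.05 to 12.09 at day 5. Of these Pax7 (-2.15 and -1.87) and Myf5 (-1.55 and -1.43) fell and Des, desmin, rose (1.27 and 1.48) at day 2. All 8 myotube markers rose at day 2, and their summed level went from 11.75 to 11.99 (log2) on the cycling arrays to 14.58 to 14.59 at day 2 and 14.15 to 14.17 at day 5. All 5 measured proliferation markers fell, from a summed 11.19 to 11.22 in cycling cells to 6.21 at day 2 and 5.93 at day 5. Of the fibroblast list 5 of 7 genes were tested, with a summed level of 9.18 to 9.21, 7.28 and 6.87. Col3a1 fell (-2.87 and -2.67 at day 2, -4.15 and -3.41 at day 5), while at day 5 Pdgfra (0.07 and 0.56) and Tcf21 (0.36 and 0.50) were called higher by under 2-fold, and Col1a1 (-0.39 and 0.44) and Thy1 (-0.35 and 0.36) had opposite signs on the 2 scales. Endothelial (5 of 5 genes), leukocyte (4 of 5), adipocyte (3 of 4) and Schwann cell (2 of 4) markers had summed levels between 4.69 and 6.09 on all arrays. Of these lists Itgam, a leukocyte integrin gene (1.96 and 1.86), and S100b (1.43 and 1.28) rose at day 2. In cycling cells they stood at percentiles 22.0 and 17.1 of the arrays, under the level that the filter for tested genes required. Those cycling levels are not shown to lie above background, so the size of both rises is uncertain. At day 2 Itgam stood at percentile 57.1 and S100b at 42.5, the latter still under the array median. The probe sets are bulk measurements, so fewer cells of a type and less RNA per cell cannot be told apart, and what part these shifts had in the changes below was not tested.

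At day 2 Hdac9 rose, Hdac1 and Hdac7 fell, and the other 7 members did not reach 2-fold on both scales. Among all tested genes 6.04% rose and 8.41% fell, 14.4% in all, and 3 of 10 members is a small count to read against that share. The median member changed by -0.45 and -0.21 on the respective scales, against -0.01 and 0.09 for the median of all genes. With no limit on size, 3 members were called higher and 5 lower, beside 42.8% and 37.4% of all genes (80.2% in all), so a call without a size limit says little here. At day 5 against cycling myoblasts Hdac9 remained the single member that rose, and Hdac1, Hdac7 and Hdac8 fell. The background was 4.44% rises and 12.3% falls, 16.7% in all. The median member changed by -1.18 and -0.31, against -0.37 and 0.17 over all genes, and 2 members were called higher and 6 lower at any size, beside 29.7% and 38.1% of all genes (67.8% in all). Between day 2 and day 5 only Hdac8 of the members fell and 0 rose, beside 3.67% and 0.766% of all genes (4.44% in all). At any size 1 was called higher and 5 lower in that comparison, the same counts at an unadjusted p under 0.05, beside 16.2% and 40.6% of all genes (56.8% in all). The comparisons against cycling myoblasts share those 3 control arrays.

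**Figure D1:**
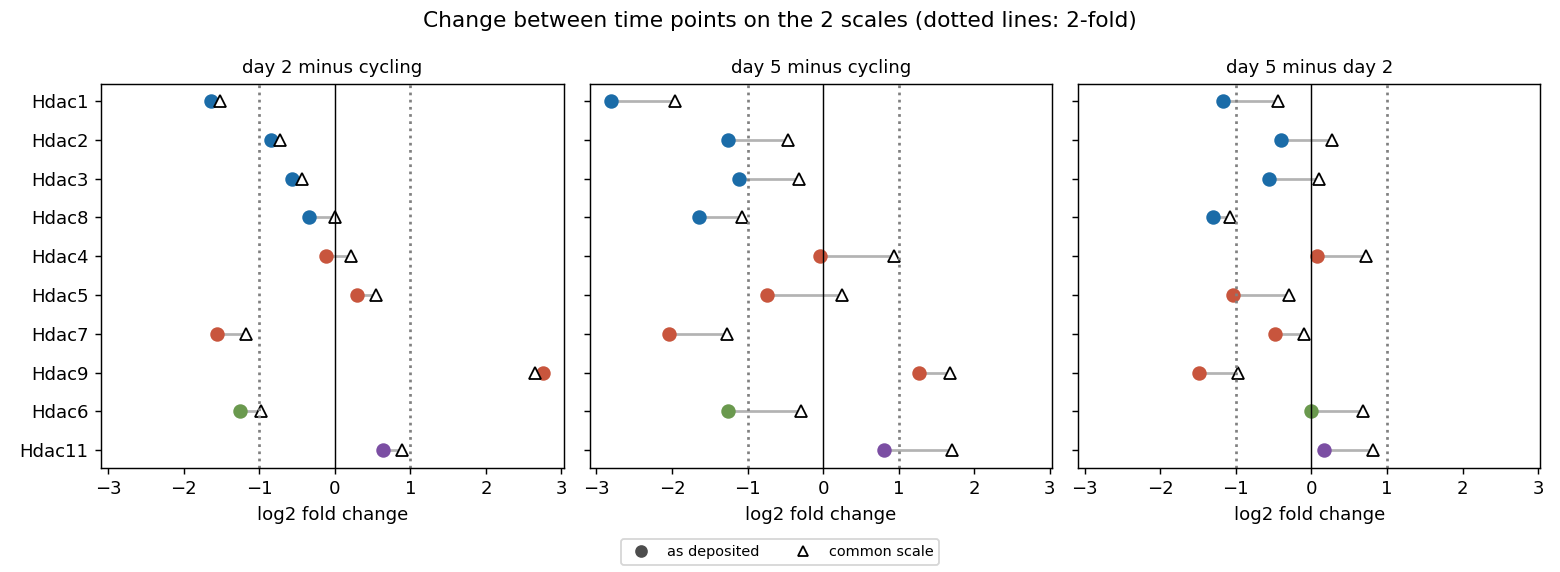
Log2 fold changes of the 10 histone deacetylase genes in 3 comparisons, as deposited (filled circles, coloured by class) and on the common scale (open triangles), with dotted lines at 2-fold and a grey line joining both values of a gene. Hdac9 lies far to the right at day 2 (2.75 and 2.64) and Hdac1 furthest to the left at day 5 (-2.81 and -1.96), while Hdac4 and Hdac5 lie on different sides of 0 on the 2 scales at day 5.

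Hdac9 had the widest range of time point means on the common scale, 2.64, and Hdac1 came next with 1.96. Start sites of Hdac9, Hdac11, Hdac5 and Hdac7 are shown. Of the member windows examined, these held a match to the MEF2 consensus or to CAGCTG, motifs chosen after the values were seen. Each window runs from 250 bases before to 50 bases after an annotated start (RefSeq, GRCm38.p6, strand of the gene). Capitals mark matches, on either strand, to the MEF2 consensus and to CAGCTG, a form of the E-box CANNTG that myogenic bHLH factors bind, so every CAGCTG is also a CANNTG.
Hdac9 upstream start, chr12:34917046-34917345, minus strand: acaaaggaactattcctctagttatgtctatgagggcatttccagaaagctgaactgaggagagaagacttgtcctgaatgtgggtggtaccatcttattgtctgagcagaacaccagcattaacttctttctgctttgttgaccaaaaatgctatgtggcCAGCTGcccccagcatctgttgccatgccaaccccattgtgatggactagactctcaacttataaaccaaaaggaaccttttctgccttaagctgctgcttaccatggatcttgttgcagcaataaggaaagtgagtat
Hdac9 internal start, chr12:34528840-34529139, minus strand: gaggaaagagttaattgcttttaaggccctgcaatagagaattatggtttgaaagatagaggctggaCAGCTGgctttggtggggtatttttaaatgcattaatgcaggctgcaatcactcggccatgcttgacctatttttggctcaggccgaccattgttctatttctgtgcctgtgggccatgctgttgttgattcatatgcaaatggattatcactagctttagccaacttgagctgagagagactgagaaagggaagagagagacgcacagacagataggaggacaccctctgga
Hdac11, chr6:91156565-91156864, plus strand: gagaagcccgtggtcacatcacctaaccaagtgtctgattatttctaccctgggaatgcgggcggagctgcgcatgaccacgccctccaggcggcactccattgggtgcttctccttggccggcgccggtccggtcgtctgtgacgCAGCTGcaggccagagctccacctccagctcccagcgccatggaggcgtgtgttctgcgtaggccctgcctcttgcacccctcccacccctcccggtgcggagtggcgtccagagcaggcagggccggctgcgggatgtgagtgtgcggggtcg
Hdac5, chr11:102230123-102230422, minus strand: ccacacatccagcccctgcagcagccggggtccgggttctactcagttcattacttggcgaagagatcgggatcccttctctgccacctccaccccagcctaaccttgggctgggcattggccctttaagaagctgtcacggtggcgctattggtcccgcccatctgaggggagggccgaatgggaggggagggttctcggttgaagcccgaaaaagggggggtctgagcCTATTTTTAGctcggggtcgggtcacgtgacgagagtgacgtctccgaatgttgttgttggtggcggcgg
Hdac7 start furthest downstream, chr15:97814814-97815113, minus strand: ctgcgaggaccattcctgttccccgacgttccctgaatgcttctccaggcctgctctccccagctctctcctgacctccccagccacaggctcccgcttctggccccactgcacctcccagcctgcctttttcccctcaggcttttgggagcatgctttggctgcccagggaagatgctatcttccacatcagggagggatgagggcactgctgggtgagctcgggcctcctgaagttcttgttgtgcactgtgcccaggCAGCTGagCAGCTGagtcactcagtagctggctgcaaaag
The table of start sites held 12 windows for 8 members. CAGCTG stood in both windows of Hdac9, at -89 and -183 from the start, in that of Hdac11 at -104, and in 1 of 4 windows of Hdac7, which held it at 11 and 19 after the start. It stood in 16.3% of all 32851 windows. The MEF2 consensus stood in the Hdac5 window alone among the 12, at -20, and in 3.19% of all windows. Both Hdac9 windows, with 44.0% and 45.3% of G and C, and the Hdac8 window, with 49.7%, lay under the 52.7% of the median window. The other member windows ran from 54.7% to 73.7%, both of these in Hdac7, with 66.7% for Hdac11 and 68.0% for Hdac4. These are matches of letters and were not tested as binding sites.

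Hdac9 was 3.45 on all 3 arrays of cycling myoblasts, 6.21 on all 3 at day 2 and 4.72 on all 3 at day 5. It was lowest in cycling cells, highest at day 2 and in between at day 5, and its values were 3.44 to 3.46, 6.09 to 6.10 and 5.12 to 5.13 on the common scale. The rise was 6.74-fold at day 2 as deposited and 6.25-fold on the common scale (log2 2.75 and 2.64, limma adjusted p = 8.30e-15 on the common scale), and 2.40-fold and 3.19-fold at day 5 (log2 1.26 and 1.67). The deposited SD was 0 at each time point, so the spread behind that p arose in the normalization and not between replicates. From day 2 to day 5 it was lower by 1.49 as deposited and by 0.97 on the common scale, where it stopped just short of 2-fold. The level in cycling myoblasts stood at percentile 35.4 of its arrays, above the filter at the 30th percentile but under the array median, so that it is not shown to lie above background and the size of the rise is uncertain. One probe set represents the gene and cannot separate full-length HDAC9 from MITR.

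Hdac7, whose product is another class IIa corepressor, moved the opposite way against cycling myoblasts. It was 6.46 on all arrays of cycling myoblasts, 4.90 at day 2 and 4.41 at day 5. Each later time point lay under the one before. The fall was 2.94-fold as deposited and 2.25-fold on the common scale at day 2 (log2 -1.55 and -1.17, limma adjusted p = 8.64e-13 on the common scale), and 4.12-fold and 2.40-fold at day 5 (log2 -2.04 and -1.27). As for Hdac9, the deposited SD was 0 at each time point, and that p measures no spread between replicates. Between day 2 and day 5 the change was -0.49 and -0.09, in the same direction as that of Hdac9.

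The remaining pair of class IIa genes did not reach 2-fold on both scales in any of the 3 comparisons, and at day 5 against cycling myoblasts the sign of both depended on the scale. Hdac4, which accumulates in denervated muscle and links nerve activity to gene expression, was 6.02 on all cycling arrays, 5.87, 5.87 and 5.98 at day 2 and 5.98 on all arrays at day 5. The day 2 and day 5 arrays overlapped as deposited but not on the common scale, where they read 5.78 to 5.88 and 6.53 to 6.55. On the first scale its day 5 change was -0.04 ± 0.03 (SE, 3 against 3 arrays, 95% interval -0.12 to 0.03, limma adjusted p = 0.184), and on the common scale it was 0.93. Without day 2 replicate 3 limma's adjusted p for that same -0.04 was 1.33e-14, the remaining arrays of each time point being identical. Its other probe set gave 0.11 and 0.99, so both probe sets were higher on the common scale. Hdac5, a class IIa enzyme closely related to HDAC4, was 6.97 on all cycling arrays, 7.27 at day 2 and 6.23 at day 5. At day 2 it was higher on both scales by under 2-fold (0.30 and 0.55), and at day 5 it was -0.74 against cycling cells as deposited and 0.25 on the common scale. Day 2 was its highest time point on both scales, and the step from day 2 to day 5 was -1.04 and -0.30.

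**Figure D2:**
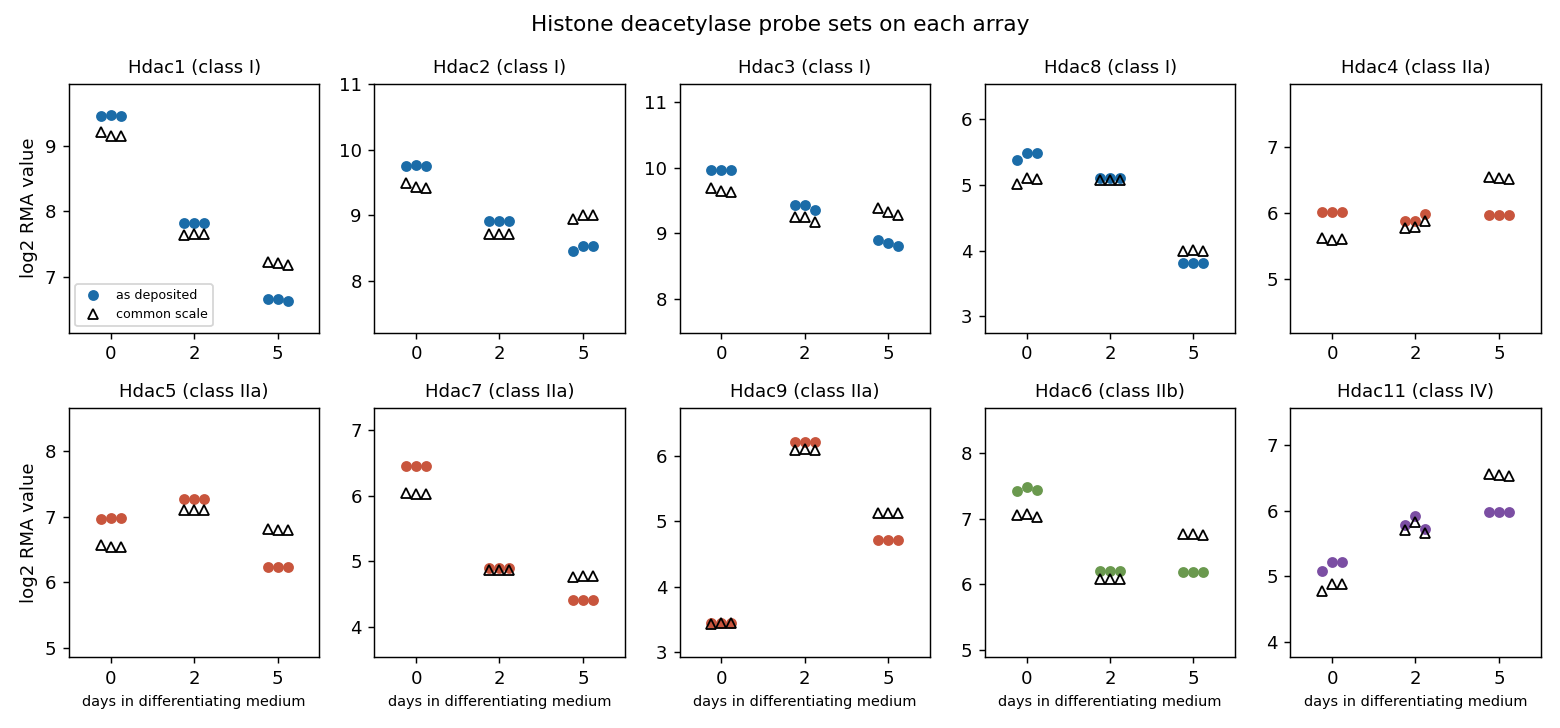
Log2 RMA values of each histone deacetylase probe set on every array against days in differentiating medium, as deposited (filled circles, coloured by class) and on the common scale (open triangles); the 3 points of a time point are the 3 arrays, and each panel spans the same number of log2 units. Hdac9 rises from 3.45 to 6.21 and comes back to 4.72, Hdac1 goes from 9.45 to 7.82 and 6.64 as deposited.

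Of the class I genes, Hdac1 fell furthest. Its product is a catalytic subunit of the Sin3, NuRD and CoREST complexes. Its probe set read 9.45, 9.46 and 9.45 in cycling myoblasts, 7.82 on all arrays at day 2 and 6.65, 6.65 and 6.63 at day 5. Each time point was lower than the last. The fall at day 2 was 3.11-fold as deposited and 2.87-fold on the common scale (log2 -1.64 ± 0.01 and -1.52 ± 0.02, SE, limma adjusted p = 6.56e-11 on the common scale). By day 5 it was 7.01-fold and 3.90-fold (log2 -2.81 and -1.96), and the step from day 2 to day 5 was -1.17 and -0.44. A further probe set named Hdac1 gave the same changes, -1.64 and -1.53 at day 2 and -2.82 and -1.97 at day 5. A pseudogene, Hdac1-ps, is annotated on chromosome 17 (78491565 to 78493541, GRCm38.p6) besides the gene on chromosome 4 (129516104 to 129542646). Probe sequences were not compared with either, so whether the pseudogene adds to the signal of these probe sets is not known.

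Hdac2, the closest paralog of Hdac1 and its partner in the same complexes, was 9.76 on all 3 cycling arrays, 8.92, 8.91 and 8.92 at day 2 and 8.46, 8.53 and 8.53 at day 5. It was called lower on both scales at day 2 (-0.84 ± 0.02 and -0.73 ± 0.02, SE) and at day 5 (-1.25 and -0.46), short of 2-fold on the common scale. Day 5 lay below day 2 as deposited (-0.41) and above it on the common scale (0.27). The difference between Hdac1 and Hdac2 in these changes was not tested.

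Hdac3, the catalytic subunit of the NCoR and SMRT corepressor complex, was 9.96 on the cycling arrays, 9.42, 9.42 and 9.36 at day 2 and 8.90, 8.84 and 8.80 at day 5. It had the smallest range of time point means on the common scale, 0.43. It was called lower on both scales at day 2 (-0.56 ± 0.03 and -0.43 ± 0.03, SE) and at day 5 (-1.12 and -0.32).

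Hdac8, a class I enzyme that works outside those complexes and deacetylates cohesin, differed at day 2 in a way that depended on the scale and fell at day 5. It was 5.38, 5.48 and 5.48 in cycling cells, 5.11 on all arrays at day 2 and 3.81 on all arrays at day 5. Its deposited value at day 2 was lower by 0.34, whereas the common scale gave a difference of 0.0023 ± 0.020 (SE, limma adjusted p = 0.918). At day 5 it fell 3.12-fold and 2.10-fold against cycling myoblasts (log2 -1.64 and -1.07) and 2.47-fold and 2.10-fold against day 2 (log2 -1.30 and -1.07). Its day 5 level stood at percentile 46.4, under the array median, so the lower side of that fall is not shown to lie above background.

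All 4 class I genes were called lower at day 5 than in cycling myoblasts on both scales, beside 38.1% of all genes. Of these, 2 fell by at least 2-fold, beside 12.3% of all genes, and the class median was -1.45 and -0.77. The class IIa genes gave 1 rise and 1 fall of 4, beside 4.44% and 12.3% of all genes, with a median of -0.39 and 0.59. With 4 genes in each class, the counts are too small to read against those shares. These medians stand beside -0.37 and 0.17 for all genes.

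Hdac6 was 7.42, 7.48 and 7.44 in cycling myoblasts and 6.19 on all arrays at day 2 and at day 5. It was called lower at day 2 on both scales, by 2.39-fold as deposited and 1.96-fold on the common scale (log2 -1.25 ± 0.01 and -0.97 ± 0.01, SE), and missed the size limit by a narrow margin on the second. At day 5 it was -1.26 and -0.29. From day 2 to day 5 the deposited change was small (-0.0044, 95% interval -0.04 to 0.03, limma adjusted p = 0.771) and 0.68 higher on the common scale. Its percentile on the arrays went from 82.6 to 73.5 and then 80.0. Hdac10, the other class IIb gene, is not one of the 10 members. Its changes had opposite signs on the 2 scales, -0.03 and 0.30 at day 2 and -0.28 and 0.60 at day 5.

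Hdac11 climbed at each step on both scales. It was 5.08, 5.21 and 5.21 in cycling myoblasts, 5.79, 5.91 and 5.72 at day 2 and 5.98 on all arrays at day 5. All arrays of each later time point were higher than all of the one before, and the share of all genes with such separation was not counted. The change was 0.64 ± 0.06 (SE) as deposited and 0.89 ± 0.05 on the common scale at day 2 (limma adjusted p = 2.93e-05 and 4.64e-07), and 0.81 and 1.70 at day 5. The day 5 change reached 3.25-fold on the common scale and 1.75-fold as deposited, and was therefore not counted as a rise. The step from day 2 to day 5 was 0.17 ± 0.06 and 0.81 ± 0.05, and as deposited its adjusted p rose from 0.0243 to between 0.0582 and 0.0714 without day 2 replicate 1 or 3 or without any one of the day 5 replicates.

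**Figure D3:**
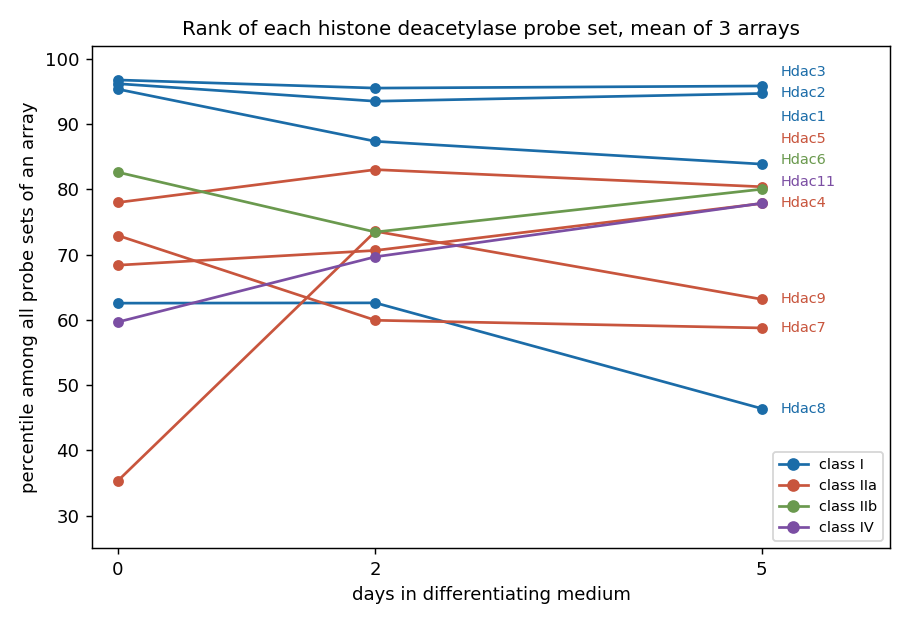
Percentile of each histone deacetylase probe set among all 35556 probe sets of its array (mean of 3 arrays) against days in differentiating medium, with 1 line per gene coloured by class. Percentiles are ranks within an array, from which the common scale is also built, so they are not a view independent of that scale. Each line is to be read along its own course, since levels of different probe sets are not comparable. Hdac9 goes from percentile 35.4 to 73.6 and 63.2, Hdac8 from 62.6 to 46.4 between day 2 and day 5, and Hdac11 from 59.7 to 77.9 by day 5.

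Other subunits of the complexes that hold class I enzymes were listed as 36 genes of the Sin3, NuRD, CoREST and related complexes. At day 2 1 rose and 2 fell, beside 6.04% and 8.41% of all genes (14.4% in all). At day 5 0 rose and 4 fell, beside 4.44% and 12.3% (16.7% in all). Between day 2 and day 5 0 reached 2-fold on both scales, beside 4.44%. These 2-fold counts are too small to read against those shares. At any size on both scales 6 were called higher and 20 lower at day 2, beside 42.8% and 37.4% of all genes, and 1 higher and 24 lower at day 5, beside 29.7% and 38.1%. Between day 2 and day 5 0 were called higher and 20 lower, also at an unadjusted p under 0.05, beside 16.2% and 40.6%. Their median change was -0.33 and -0.06 at day 2 and -1.15 and -0.29 at day 5. Sin3a, the scaffold of the Sin3 complex, fell at both times (log2 -1.67 and -1.38 at day 2, -2.37 and -1.47 at day 5). Sap30, which joins the same complex, rose at day 2 (1.34 and 1.58), and the HDAC-binding subunit gene Arid4b fell at day 5 (-2.06 and -1.14). Brms1l fell at day 2 (-1.14 and -1.02), and Mier1 (-1.98 and -1.08) and Sap18 (-1.66 and -1.01) fell at day 5. Of the NCoR and SMRT complex, 3 of 5 genes were tested, and Tbl1x, a WD-repeat subunit, fell at day 2 (-1.29 and -1.14) and day 5 (-2.09 and -1.21).

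Genes that control class IIa enzymes were listed as their kinases, the YWHA family adaptors that retain phosphorylated class IIa proteins in the cytoplasm, and subunits of the PP2A phosphatase. Of 26 tested genes, 2 rose and 3 fell at day 2, beside 6.04% and 8.41% of all genes (14.4% in all), and 5 of 26 is near that total. At day 5 2 rose and 6 fell, beside 4.44% and 12.3% (16.7% in all), small counts to read against those shares. The kinase genes Camk2a (1.63 and 1.65 at day 2) and Camk2b (2.04 and 2.07) rose, and Camk2b was higher still at day 5 (2.41 and 3.12). Their cycling levels, 3.99 and 4.41, lay near the array median. Camk1g, another calmodulin-dependent kinase, fell from 8.11 in cycling cells to 4.41 at day 2 and 3.00 at day 5 (-3.71 and -3.43, then -5.11 and -4.66), where it was under the 30th percentile. It also fell between day 2 and day 5 (-1.41 and -1.24). In that comparison 0 of the 26 rose and 1 fell, near the 0.766% and 3.67% of all genes. The adaptor genes Ywhah and Ywhaq fell at both times, with -2.11 and -1.36 and with -2.63 and -1.78 at day 5. Of the MEF2 factors that class IIa proteins bind, 3 of 4 were tested. Mef2c rose at day 2 (3.60 and 3.89) and remained up at day 5 (3.32 and 4.04), and Mef2d rose at day 2 (1.14 and 1.38). Mef2a was called higher at day 2 by under 2-fold (0.46 and 0.60), lower at day 5 against cycling cells (-0.98 and -0.20) and lower from day 2 to day 5 (-1.44 and -0.80).

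The acetyltransferases, which oppose deacetylases, gave 0 rises and 1 fall of 13 at day 2, and 1 rise and 2 falls at day 5, beside 14.4% and 16.7% of all genes that changed. At any size 3 were called higher and 6 lower at day 2, 1 and 8 at day 5 and 1 and 9 between them, with the same counts at an unadjusted p under 0.05. The shares of all genes were 42.8% and 37.4%, 29.7% and 38.1%, and 16.2% and 40.6%. Hat1, which acetylates newly made histone H4, fell at day 2 (-1.51 and -1.39) and day 5 (-2.54 and -1.71), and Kat6a fell at day 5 (-2.39 and -1.51). Kat2b, the gene of the MyoD coactivator PCAF, rose at day 5 (1.00 and 1.66), at the limit of 2-fold as deposited. Between day 2 and day 5 Kat6a (-1.69 and -1.06) and the coactivator gene Ncoa1 (-1.75 and -1.12) fell. Partners and substrates of HDAC6 had 9 of 13 genes tested, of which 1 rose and 2 fell at day 2, 0 rose and 3 fell at day 5, and 1 fell between them, beside 14.4%, 16.7% and 4.44% of all genes that changed. Cortactin, Cttn, fell at day 2 (-1.25 and -1.15) and day 5 (-2.15 and -1.34), as did the chaperone gene Hsp90aa1 (-1.02 and -1.02, then -2.72 and -2.12), which also fell between day 2 and day 5 (-1.69 and -1.10), and Mapre1 fell at day 5 (-1.97 and -1.16). The tubulin gene Tuba4a rose at day 2 (1.00 and 1.15).

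Of the 7 sirtuins, the NAD-dependent deacetylases of class III, 0 rose and 0 fell by 2-fold on both scales in any of the 3 comparisons, beside 14.4%, 16.7% and 4.44% of all genes that changed. At any size 4 were called higher and 2 lower at day 2, beside 42.8% and 37.4% of all genes, and 2 higher and 2 lower at day 5, beside 29.7% and 38.1%. Between day 2 and day 5 1 was called higher and 2 lower, beside 16.2% and 40.6%, and the counts at an unadjusted p under 0.05 were the same in all 3 comparisons. At day 5 Sirt3, a mitochondrial enzyme, was 0.80 and 1.71 higher, Sirt2 0.62 and 1.46 higher, and Sirt6, a nuclear enzyme, changed by -1.69 and -0.77.

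**Figure D4:**
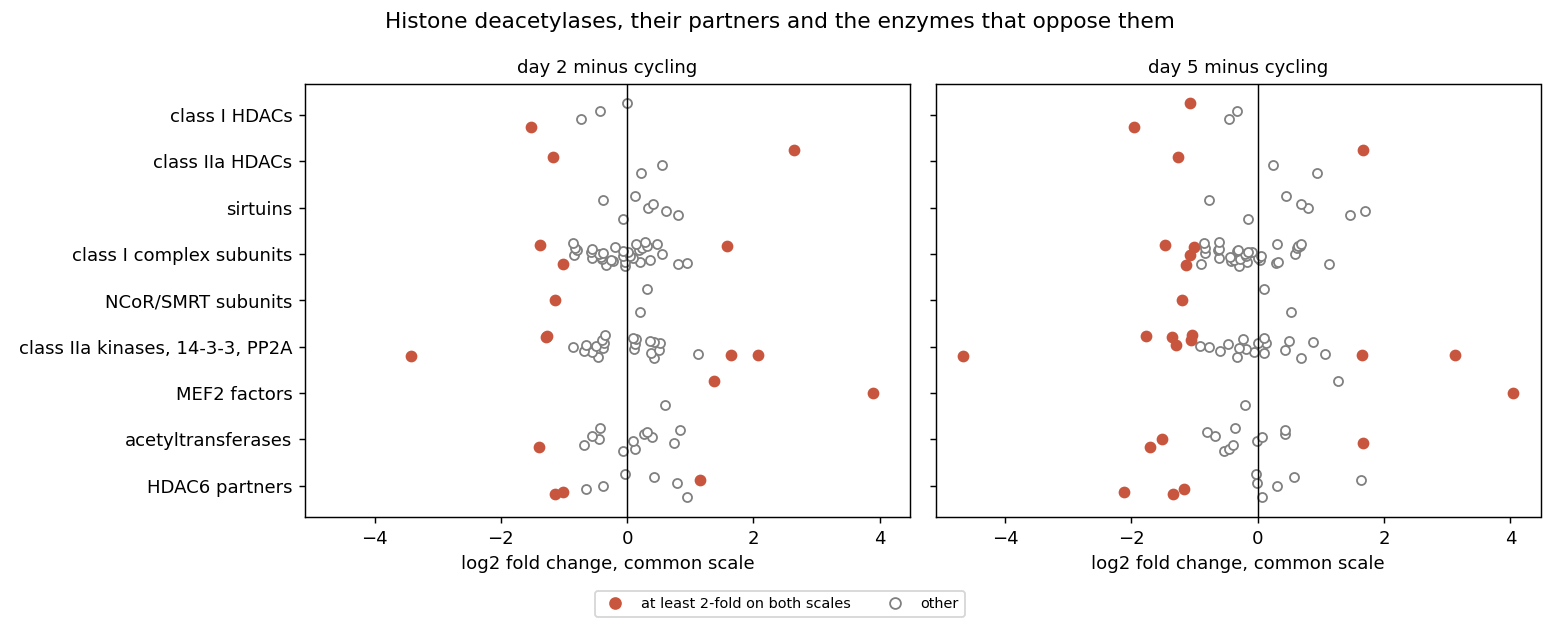
Log2 fold changes on the common scale at day 2 and day 5 against cycling myoblasts for class I and class IIa histone deacetylases and 7 lists of related genes, 1 point per tested gene, spread vertically for visibility. Filled points changed at least 2-fold on both scales; Mef2c (3.89 and 4.04) and Camk1g (-3.43 and -4.66) lie furthest out, and no sirtuin is filled.

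For the 3 members with the widest range on the common scale, the tested genes with the most similar course were found by Euclidean distance between the 9 values centred on each gene's mean. The 9 points are 3 time points of 3 near-identical arrays, so closeness describes 3 levels only. Closest to Hdac9 were Srpk3, a muscle SR protein kinase gene (distance 0.18), the integrin gene Itgb6 (0.22) and the sphingosine phosphate receptor gene S1pr1 (0.25). Srpk3 changed by 2.59 at day 2 and 1.53 at day 5 on the common scale, beside 2.64 and 1.67 for Hdac9. As deposited, the scale not used for the match, Srpk3 changed by 2.55 and 0.81, beside 2.75 and 1.26. At day 5 as deposited Itgb6 was also under 2-fold (0.61), whereas S1pr1 was not (1.35). Closest to Hdac1 were Irf1, an interferon-regulated transcription factor gene (0.060), Snhg5 (0.071) and Pdpn, podoplanin (0.071), and closest to Hdac11 were Paqr7 (0.14), the complex I subunit gene Ndufs7 (0.15) and Wdtc1 (0.16).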

How the data were processed

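Affymetrix arrays measured biotin-labelled RNA of 3 cycling myoblast, 3 day 2 and 3 day 5 samples. The authors deposited log2 values computed by RMA, per replicate set according to the series' design text and the submitters' processing notes; no software version is recorded in those texts. The table held 35556 probe sets. The platform annotation named 1 gene for 21789 of them, several for 1621 and none for 12146; Entrez identifiers of 21698 matched RefSeq (GRCm38.p6). The probe set with the highest mean stood for a gene, and genes above the 30th percentile on at least 3 arrays were tested.

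The limma package 3.58.1 (R 4.3.3; lmFit and eBayes) fitted a mean for each time point over the 9 arrays, with Benjamini-Hochberg adjustment over 16582 genes, on the deposited values and after normalizeQuantiles. A fall or rise needed an adjusted p under 0.05 and an absolute log2 change of at least 1 on both. The fit was tested on simulated data with independent noise in every value and no scale difference between time points. The deposited values differ in both respects, so that test does not show how reliable the calls are. The members and lists were chosen with earlier results of these data known; promoter motifs were chosen after the values were seen. All members are named, and from each list of related genes up to 4 changed genes per comparison with the largest change on the scale where it was smaller, plus some outside that rule given as values only; marker lists are given by summed levels and a few of the genes the same rule selects. Standard errors come from limma and rest on the near-identical replicate values; the number of arrays limits precision. Same-numbered replicates were checked for pairing and were not treated as pairs.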

Additional observations from a re-analysis of the deposited data

How the results depend on the processing

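Among member fold changes recomputed under the alternatives, 12 reversed, 6 lost and 4 gained an adjusted p under 0.05. The others kept their sign and their side of that threshold, in part by construction, since 8 members have 1 probe set and the deposited scale alone leaves fold changes as they are. On the common scale the reversed values were 0.0023 for Hdac8 and 0.21 for Hdac4 at day 2, 0.93 for Hdac4 and 0.25 for Hdac5 at day 5, and 0.27 for Hdac2, 0.11 for Hdac3 and 0.68 for Hdac6 at day 5 against day 2. Centring each array on its median reversed Hdac4 at day 5 (0.31) and Hdac6 at day 5 against day 2 (0.27), and the second probe set reversed Hdac4 (0.12, 0.11 and -0.0074 in the 3 comparisons). The cause was not tested. With the deposited scale alone, an alternative added after seeing the data, 7 members (6 lower) and 5576 genes changed 2-fold at day 5, and 4 members (all 4 lower) and 2675 genes between day 2 and day 5. The common scale alone, and median centring, each gave 2 members higher at day 5, Hdac11 being added. Median centring gave 2 members lower between day 2 and day 5, with 4749 genes changed at day 5 and 1521 between the later times. The share of rises among all 2-fold changes at day 5 was 13.2% as deposited, 49.0% on the common scale and 26.5% on both; at day 2 it was 34.7%, 47.7% and 41.8%, and between the later times 4.75%, 43.1% and 17.3%. The second probe set, no filter, a filter at the 50th percentile, trended and robust variance and the replicate block left the member counts at 3, 4 and 1. Deviations of same-numbered arrays correlated at -0.04 to 0.11, and 5 of 9 arrays correlated best with arrays of their own number. Many probe sets had identical values on all 3 arrays of a time point, so this check cannot decide whether the numbers pair the samples. With the replicate block 2396, 2776 and 736 genes changed. Without any one array the member counts remained 3, 4 and 1, and 2350 to 2412, 2755 to 2799 and 728 to 772 genes changed. The files hold no measure of background, which limits what low values such as Hdac9 in cycling myoblasts can show.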
